A study of Mus musculus with 29 samples.

Results

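The nuclear-encoded subunits of the respiratory chain and the ATP synthase were followed through a toxin injury of mouse podocytes. The genes were chosen by symbol: those that start with Nduf, Sdha, Sdhb, Sdhc, Sdhd, Uqcr, Cox4, Cox5, Cox6, Cox7, Cox8 or Atp5, together with Cyc1 and Cycs, without the complex I assembly factors and without pseudogenes. The rule gave 91 of the 20145 genes that could be named on the array, and 90 of them were among the 15639 genes bright enough to be tested. Cox8b, a muscle isoform, was the gene left out. Of the 90, 36 belonged to complex I, 8 carried a complex II symbol, 9 belonged to complex III, 19 to complex IV and 17 to complex V, and 1 was cytochrome c. The prefix Sdha also brings in Sdhaf1 to Sdhaf4, which are assembly factors of complex II and not subunits, so they are described apart.

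Podocytes were sorted by colour from the kidneys of 16 Pod-hCD25T/G mice, 8-week-old males on the C57BL/6J background, 4 mice at each of days 0, 1, 4 and 7. The treatment was removal of a kidney and then LMB2 at 25 ng per gram of body weight; day 0 was before the injection, and whether the day 0 mice had undergone the surgery is not stated in the labels. LMB2 is an antibody fragment against CD25 fused to a bacterial exotoxin that stops translation elongation. The labels do not say what the colours stand for; in the published design of this mouse, TdTomato goes with human CD25, the toxin target, and EGFP with its absence in neighbouring podocytes. The EGFP groups held 4, 3, 4 and 4 arrays at days 0, 1, 4 and 7, and the TdTomato groups held 4, 4, 4 and 2. Both colours were measured in 13 mice. All mice carried the transgenes and no untreated mice of later days were among the samples, so time and toxin cannot be told apart within a colour. In sorted bulk RNA, fewer cells of a type and less RNA per cell cannot be told apart either.

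The respiratory chain sits in the inner mitochondrial membrane. Complex I takes electrons from NADH and complex II takes them from succinate, complex III passes them through cytochrome c to complex IV, and the proton gradient that results drives the ATP synthase, complex V. Most subunits are read from nuclear genes and imported, while a few core subunits of complexes I, III, IV and V are read from mitochondrial DNA and were not analysed here. Podocytes are large, non-dividing cells of the glomerular filter, and both mitochondria and glycolysis supply their ATP.

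The promoters of 74 of the 91 genes had an entry in the RefSeq table for GRCm38.p6, and the 250 bases before the transcription start were searched on both strands for 5 strings, none of which contains another. The NRF1 palindrome (GCGC, any base, TGCGC) was in 13 of the 74 promoters, or 17.6%, beside 4.23% of 27025 genes. The ETS string CCGGAAG, bound by GABP, was in 14 of them, or 18.9%, beside 7.83%. The cAMP response element TGACGTCA was in 5 of them, or 6.76%, beside 1.77%. The string AAGGTCA of the estrogen-related receptors was also in 5, or 6.76%, beside 4.7%, and AAGATGGCG of YY1 was in 1, or 1.35%, beside 0.71%. At least 1 of the strings was in 29 promoters and none was in the other 45. The promoters of 5 genes are printed because the genes show the main courses described here: Atp5d and Sdha rose at day 1, Sdhd rose at day 4, Atp5h fell on both days and Cycs rose in EGFP podocytes at day 7. They read 5′ to 3′ on the strand of the gene, with matched strings in capitals.
Atp5d: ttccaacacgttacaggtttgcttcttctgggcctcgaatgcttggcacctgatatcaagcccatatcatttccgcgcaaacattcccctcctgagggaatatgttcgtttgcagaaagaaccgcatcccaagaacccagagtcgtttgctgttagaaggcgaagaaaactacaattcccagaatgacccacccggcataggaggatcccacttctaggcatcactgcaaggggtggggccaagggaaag
Sdha: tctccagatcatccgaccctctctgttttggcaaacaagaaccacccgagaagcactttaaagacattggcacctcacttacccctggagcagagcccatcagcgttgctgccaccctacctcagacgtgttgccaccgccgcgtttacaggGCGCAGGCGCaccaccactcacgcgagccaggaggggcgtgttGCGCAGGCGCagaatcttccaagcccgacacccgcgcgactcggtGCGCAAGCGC
Sdhd: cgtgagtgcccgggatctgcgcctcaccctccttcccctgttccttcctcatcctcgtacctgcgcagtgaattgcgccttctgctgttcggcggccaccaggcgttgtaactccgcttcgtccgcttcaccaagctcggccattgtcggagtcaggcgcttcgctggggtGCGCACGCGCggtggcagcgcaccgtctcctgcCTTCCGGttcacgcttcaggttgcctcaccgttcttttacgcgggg
Atp5h: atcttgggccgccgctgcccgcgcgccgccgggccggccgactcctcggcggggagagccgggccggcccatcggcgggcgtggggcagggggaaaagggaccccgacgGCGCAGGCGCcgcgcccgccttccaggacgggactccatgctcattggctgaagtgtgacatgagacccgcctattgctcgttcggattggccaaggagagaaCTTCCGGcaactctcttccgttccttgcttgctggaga
Cycs: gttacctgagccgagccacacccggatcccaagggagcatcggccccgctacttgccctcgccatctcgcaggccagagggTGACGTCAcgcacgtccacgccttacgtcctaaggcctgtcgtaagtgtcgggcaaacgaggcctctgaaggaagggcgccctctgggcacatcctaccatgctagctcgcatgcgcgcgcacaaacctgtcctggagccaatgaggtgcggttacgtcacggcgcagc
The Atp5d stretch is chr10:80142025-80142274 on the plus strand, and it holds none of the 5 strings. The other stretches lie on the minus strand: Sdha at chr13:74350241-74350490, Sdhd at chr9:50603850-50604099, Atp5h at chr11:115419920-115420169 and Cycs at chr6:50566570-50566819. Sdha holds the NRF1 string 3 times, Sdhd and Atp5h each hold it once beside an ETS string, and Cycs holds the cAMP response element. Sdhd and Atp5h thus carry the same pair of strings and moved in opposite directions at day 4. Among the 13 holders of the NRF1 string, 4 were called lower and 1 higher at day 1 in TdTomato podocytes, and 7 lower and 1 higher at day 4, where 21 and 34 of all 74 genes with a promoter were lower at days 1 and 4. Among the 14 holders of the ETS string, 5 were lower and 0 higher at day 1, and 9 lower and 1 higher at day 4. The 5 holders of the estrogen-related receptor string and the 5 of the cAMP response element each had 2 lower at day 1 and 3 at day 4, with 0 higher, and the 1 holder of the YY1 string was lower on both days. Of all genes tested, 23.8% were higher and 27.9% lower at day 1, and 21.4% and 35.9% at day 4. A difference of the holders from these shares was not tested.

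Values are log2 of the processed signal minus the 75th percentile of each array, so a difference of 1 is a doubling, and levels are compared only for the same probe. A gene was called where the adjusted p of the limma fit over all 15639 genes was below 0.05. The arrays lay on 4 slides, and between 48.2% and 65.5% of the spots of an array were well above background. The slide with the arrays of mice MC122, MC125, MC151 and MC221, here slide 4, stood high for these genes. Relative to the day 0 mean of their colour, the median over the 90 genes was 0.43 and 0.46 in the EGFP and TdTomato arrays of MC122 and -0.25 to 0.02 in the other day 0 arrays. It was 0.35 in the EGFP array of MC125 and 0.65 in that of MC151. Slide 4 held 1 array of each of the 8 groups, so each comparison is also given with the slide as a block where the count of called genes moved by more than 1.5 times, and within slides.

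Markers of podocytes and of other kidney cells moved with the groups, and their part in the results was not tested. The mean level of 15 podocyte markers was 5.34 to 5.68 in TdTomato arrays of day 0, 4.86 to 5.12 at day 1, 4.46 to 4.76 at day 4 and 4.95 to 5.12 at day 7, with 14 or 15 of the 15 above background in every array. In EGFP arrays it was 5.31 to 5.61 at day 0, 5.04 to 5.51 at day 1, 5.38 to 5.61 at day 4 and 4.97 to 5.22 at day 7, where every array lay below those of day 0. The 20 proximal tubule markers had a mean of -3.90 to -1.0 in TdTomato arrays of day 0 and -2.70 to 2.38 at day 4, where MC823 was the array at 2.38 and had all 20 above background. The 15 endothelial markers had a mean of -1.72 to -0.28 at day 0, -1.34 to 1.76 at day 4 and 1.09 to 2.27 at day 7. The 13 myeloid markers had a mean of -4.21 to -3.40 at day 0, with 4 to 7 above background, and of -2.19 to -1.35 at day 4, with 7 to 12 above it. The 7 lymphocyte markers had a mean of -3.74 to -2.24 at day 0 and -1.30 to -0.37 at day 4. In TdTomato arrays of day 1 the endothelial mean was -2.70 to 0.33 and the myeloid mean -3.63 to -1.58. MC831 was highest for both, within the day 4 ranges, with 12 myeloid markers above background. The day 1 lymphocyte mean was -4.04 to -2.5. In EGFP arrays the myeloid mean was -4.25 to -3.69 at day 1 and -4.26 to -3.38 at day 4. The EGFP endothelial mean was -2.98 to -1.86 at day 1 and -2.85 to -0.72 at day 4.

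In TdTomato podocytes at day 1 after the toxin, 8 of the 90 genes were higher than at day 0 and 23 were lower. Over all genes tested 23.8% were higher and 27.9% lower, so the share called lower, 25.6%, was close to that of all genes, and the share called higher, 8.89%, was below it. The median difference was -0.21 over the 90 genes and -0.13 over all genes, and the gap between the 2 medians turned from -0.07 to 0.03 with normexp background correction. The 8 higher and the 23 lower genes each had the same sign on all 4 slides. They were called on these same arrays, so this agreement is no separate support. Without slide 4, 9 were higher and 25 lower, and blocking on the slide gave 10 higher and 36 lower, beside 27.8% and 34.2% of all genes. Without the TdTomato day 0 array of MC122 only 14 were lower. Quantile normalization gave 37 of the 90 lower, beside 29.8% of all genes, so under that setting the share lower lay above that of all genes. Within slides the median over the 90 genes ran from -0.39 to -0.03.

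At day 4, 6 genes were higher and 36 lower than at day 0, where all genes gave 21.4% and 35.9%. The share of the 90 called lower was near that of all genes, and the share called higher was below it. All genes had also moved down, from 27.9% lower at day 1. The median difference was -0.38 over the 90 genes and -0.28 over all genes, and under quantile normalization the gap of -0.09 between these medians became 0.10. Quantile normalization also changed the split to 10 higher and 26 lower, beside 22% and 36.4% of all genes. Blocking on the slide gave 8 higher and 52 lower, beside 24.6% and 43.7%. The share lower was thus below that of all genes under quantile normalization and above it with the slide as a block. All 42 called genes had 1 sign on each slide that measured them, which is no separate support because they were called on these arrays. Within slides the median of the 90 genes ran from -0.65 to -0.16. Without the tubule-rich TdTomato array of MC823, 6 were higher and 32 lower. At day 7, with 2 TdTomato arrays, 0 were higher and 3 lower, beside 10.9% and 8.45% of all genes, and 10 of the 90, or 11.1%, had an unadjusted p below 0.05, beside 32.7% of all genes. The median was then -0.14 for the 90 genes as for all genes at -0.14. Under quantile normalization it was 0.02 for the 90 genes, beside -0.11 over all genes. With normexp it was -0.23 beside -0.02, and with the slide as a block -0.22 beside -0.14. On slides 1 and 4, which alone held both days, the median of the 90 genes was 0.09 and -0.59. Blocking on the slide gave 1 gene higher and 14 lower at day 7, beside 14.4% and 17.4% of all genes.

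EGFP podocytes of the same glomeruli had few calls. At day 1, 0 genes were higher and 0 lower beside 0.0256% and 0% of all genes, with 2 of the 90 at an unadjusted p below 0.05 (2.22%, beside 2.99% of all genes). At day 4, 0 were higher and 0 lower beside 0.556% and 0.0384%, with 5 at an unadjusted p below 0.05 (5.56%, beside 7.83% of all genes). Of the 90 differences 86, or 95.6%, were above 0, beside 62.3% of all genes, and their median was 0.20 beside 0.07 over all genes. That day 4 median was 0.14 to 0.25 within each of the 4 slides. Blocking on the slide called 2 of the 90 genes higher, beside 1.6% of all genes. Blocking on the mouse also called 2 higher, beside 0.607%. At day 7, 2 genes were higher and 0 lower, beside 5.33% and 1.92%, with a median of 0.09 and within-slide medians from -0.32 to 0.32. Blocking on the slide gave 4 higher and 0 lower at day 7, beside 9.19% and 7.45% of all genes.

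**Figure D1:**
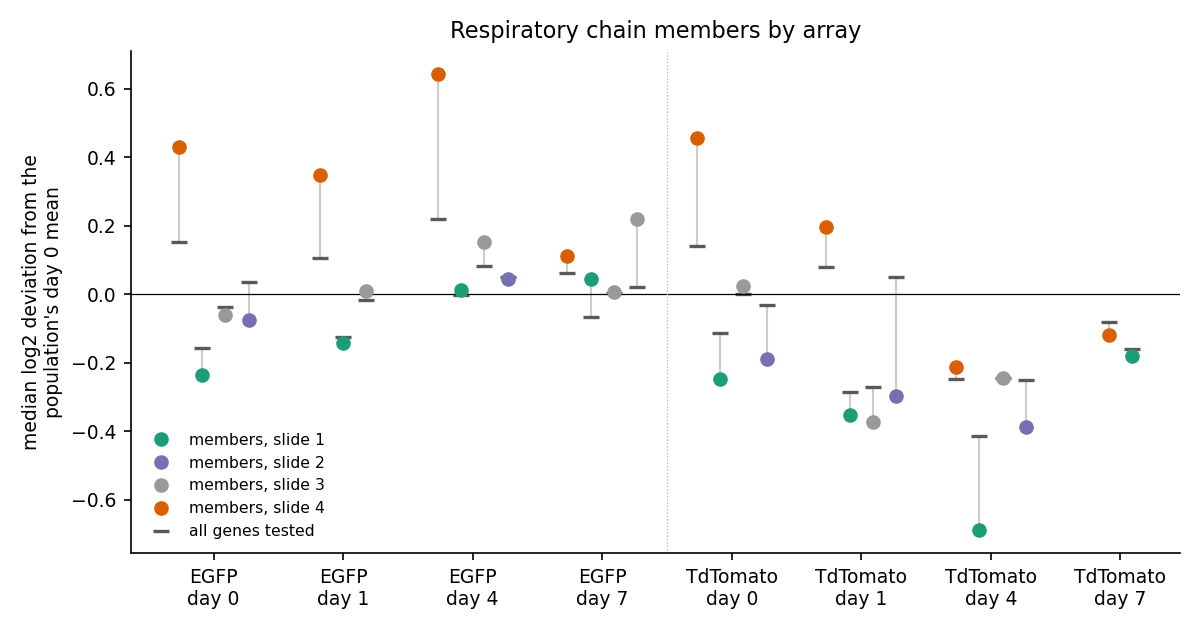
Median over the 90 respiratory chain genes of the log2 deviation from the day 0 mean of the same colour, for each of the 29 arrays (circles, coloured by slide), with the median over all 15639 genes of that array (dashes). The slide 4 arrays stand highest in most groups, from 0.65 in EGFP day 4 to -0.21 in TdTomato day 4, and every TdTomato array of day 4 lies below 0.

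Comparing both colours at the same day asks how targeted and untargeted podocytes differ. Before the toxin, 0 of the 90 genes were higher and 0 lower in TdTomato than in EGFP podocytes, as in all genes at 0% and 0%, and 0 of the 90 had an unadjusted p below 0.05, beside 0.473% of all genes. Still, 88.9% of the 90 differences lay above 0 before the toxin, beside 55.2% of all genes. A shared sign of most of these genes was thus also seen without injury and without calls. At day 1, 7 were higher and 22 lower in TdTomato, beside 23.7% and 25.6% of all genes. At day 4, 4 were higher and 47 lower, beside 21% and 38.6%, with a median of -0.54 beside -0.33 over all genes. That gap of -0.21 between the medians became 0.05 under quantile normalization, where 9 were higher and 40 lower. At day 7, 0 were higher and 0 lower, beside 6.18% and 0.799%, and 6 had an unadjusted p below 0.05 (6.67%, beside 21.8% of all genes). Of the 90 differences 82, or 91.1%, were then below 0, beside 62.6% of all genes.

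The 13 mice with both colours allow a fit with the mouse as a block, and in it 14 genes were higher and 32 lower in TdTomato at day 1, beside 28.2% and 32.6% of all genes in that fit. At day 4 it gave 7 higher and 66 lower, beside 25.4% and 48% of all genes. Blocking on the slide gave 12 higher and 28 lower at day 1, beside 27.9% and 31.1%, and 7 higher and 62 lower at day 4, beside 24.1% and 45.5%. At day 7 it gave 0 higher and 1 lower, beside 8.56% and 5.67%. The day 1 count of lower genes rested in part on 1 array: it was 10 without the EGFP array of MC125. Quantile normalization gave 41 of the 90 lower at day 1, beside 28.4% of all genes, a share above that of all genes. Within slides the median of the 90 genes ran from -0.24 to -0.09 at day 1 and from -0.73 to -0.36 at day 4. The day 4 count of higher genes was 2 without the TdTomato array of MC822.

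The change from day 0 was also compared between the colours, as TdTomato change minus EGFP change. At day 1 this interaction was positive for 6 and negative for 15 of the 90 genes, beside 18.3% and 20.1% of all genes. At day 4 it was positive for 3 and negative for 38, beside 16% and 28.3%. At day 7 it was called for 0 in either direction, beside 2.65% and 0.0384%, with 4 at an unadjusted p below 0.05 (4.44%, beside 12.3% of all genes). Blocking on the mouse gave 8 positive and 30 negative genes at day 1, beside 24.4% and 29.3% of all genes, and 6 positive and 64 negative at day 4, beside 21.3% and 42.9%. Blocking on the slide gave 7 positive and 27 negative at day 1, beside 23.4% and 26.8%, and 3 positive and 61 negative at day 4, beside 19.4% and 39.4%. Quantile normalization gave 7 positive and 28 negative at day 1, beside 18.4% and 21.5%. At day 4 it gave 5 positive and 28 negative, beside 17.6% and 25.1%. The day 4 median of the 90 genes was then -0.30 beside -0.32 over all genes. Without quantile normalization these medians were -0.60 and -0.35. Without the EGFP day 1 array of MC125, 8 were negative at day 1. Without either the TdTomato day 0 array of MC742 or the EGFP day 4 array of MC822, 1 was positive at day 4.

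The day 1 and day 4 comparisons of the colours share no arrays. Of the 22 genes lower in TdTomato at day 1, 21 were also lower at day 4, which is 95.5% of the day 1 list and 44.7% of the 47 of day 4. Over all genes tested the same shares were 78.2% and 51.9%. Of the 7 and 4 higher genes, Uqcrc2 alone was in both lists, or 14.3% and 25% of them, beside 45% and 50.8% over all genes. Atp5d and Sdha were higher at day 1 and lower at day 4. A further 27 genes were called at day 4 alone, 5 at day 1 alone and 34 on neither day.

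**Figure D2:**
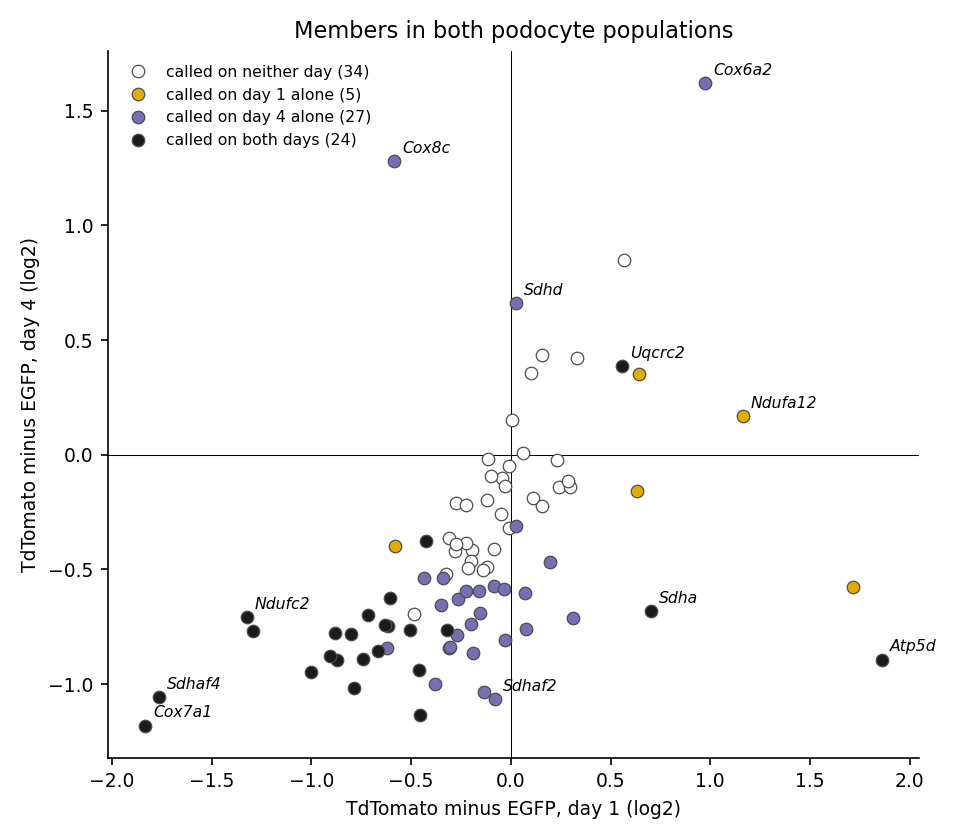
Log2 difference between TdTomato and EGFP podocytes at day 1 (horizontal axis) and day 4 (vertical axis), with 1 circle for each of the 90 genes and the fill showing on which days it was called at an adjusted p below 0.05. Genes called on both days number 24 and lie mostly in the lower left, while Atp5d and Sdha lie in the lower right.

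**Figure D3:**
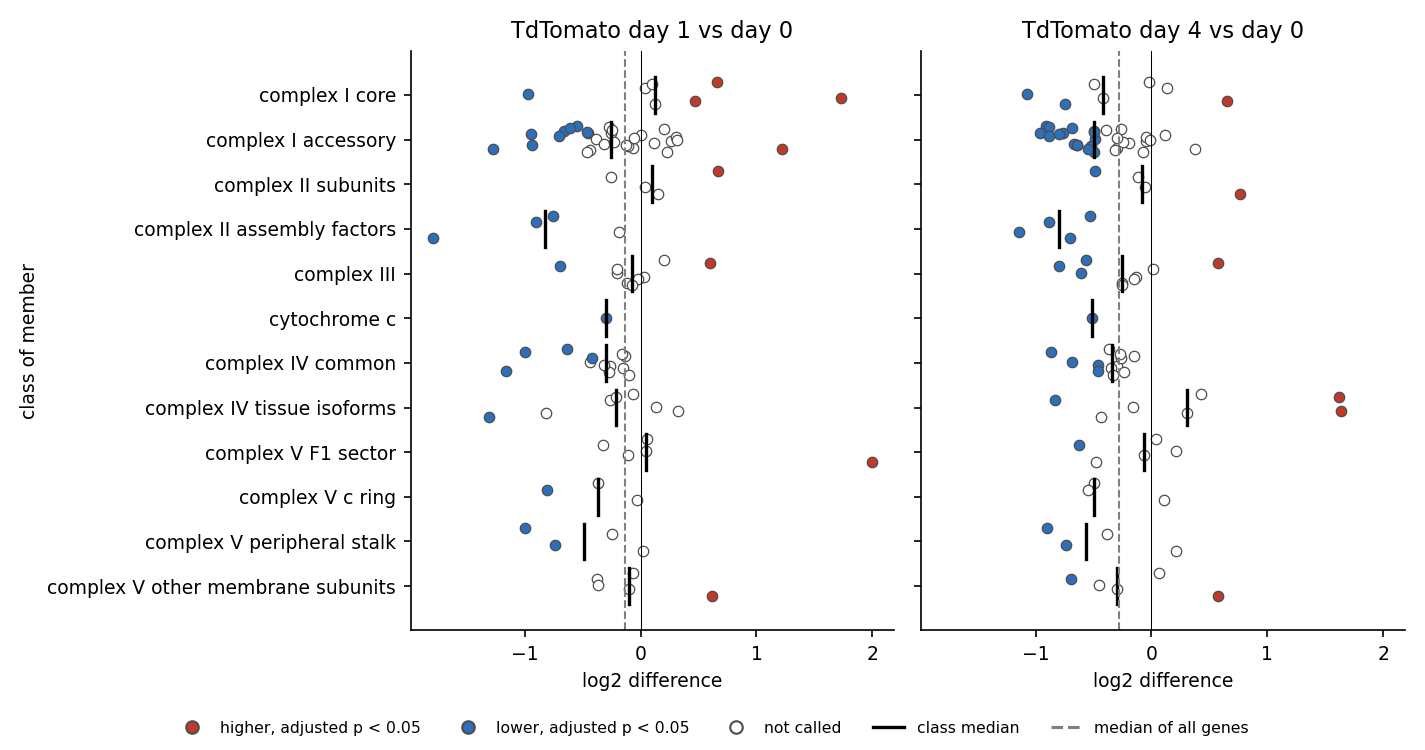
Log2 difference from day 0 in TdTomato podocytes for each of the 90 genes (circles), by class, at day 1 (left) and day 4 (right). Filled circles were called at an adjusted p below 0.05, bars are class medians, and the dashed line is the median of all 15639 genes (-0.13 at day 1, -0.28 at day 4).

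Complex I has conserved core subunits, 7 of them read from nuclear genes, around which accessory subunits are packed. Ndufs1, the largest core subunit and a carrier of iron-sulphur clusters, rose at day 1. Its TdTomato arrays read 4.97, 4.67, 5.08 and 4.70 at day 0, 5.50, 5.49, 5.58 and 5.50 at day 1, and 4.84, 4.84, 4.97 and 4.70 at day 4. Day 1 stood clear of both other days. The day 1 difference was 0.66 (SE 0.122, adjusted p = 6.5e-05 in limma), and at day 4 it was -0.02 (adjusted p = 0.9). Ndufv2, of the NADH-oxidising module, rose at day 1 by 0.47 (adjusted p = 0.044) and at day 4 by 0.65 (adjusted p = 0.0057). Its day 1 call ended without any of 5 of the 8 arrays, while none of the 8 ended its day 4 call. Ndufv1, which binds NADH in the same module, differed by 0.10 at day 1 and -0.49 at day 4 (adjusted p = 0.77 and 0.078).

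Ndufs8, an iron-sulphur subunit that carries electrons toward quinone, went the other way. The TdTomato values were 3.60, 2.82, 3.28 and 3.06 at day 0, 2.15, 2.67, 2.02 and 2.03 at day 1, 2.35, 1.67, 2.10 and 2.35 at day 4, and 2.97 and 2.90 at day 7. Neither day 1 nor day 4 overlapped day 0, and both day 7 arrays lay above them. The differences from day 0 were -0.97 (SE 0.211, adjusted p = 0.00041) at day 1 and -1.07 (SE 0.211, adjusted p = 0.00017) at day 4. Against EGFP it was lower by -0.79 and -1.02 on those days (adjusted p = 0.0058 and 0.00026).

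Of the 29 accessory complex I genes, 9 were lower and 1 higher at day 1, with a median of -0.26, and 16 were lower and 0 higher at day 4, with a median of -0.49. The share lower was 31% at day 1, near the 27.9% of all genes, and 55.2% at day 4, beside 35.9%. Against EGFP at day 4, 21 of the 29 were lower and 0 higher, beside 38.6% and 21% of all genes. In EGFP podocytes all 29 lay above 0 at day 4, as did 62.3% of all genes, with a median of 0.21 and 0 called. Ndufc2, of the membrane arm, had the largest fall of complex I at day 1. It read 5.15, 4.74, 5.13 and 4.65 in TdTomato at day 0, 3.33, 4.15, 3.65 and 3.43 at day 1, 4.23, 4.2, 4.56 and 4.49 at day 4, and 4.52 and 4.98 at day 7. The groups of days 0, 1 and 4 did not overlap, with day 1 lowest. The day 1 difference was -1.28 (SE 0.166, adjusted p = 6.6e-07), or 2.42-fold, and that of day 4 was -0.55 (SE 0.166, adjusted p = 0.0071).

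Ndufb2, another membrane arm subunit, fell later. Its TdTomato values were 4.97, 3.88, 4.36 and 4.13 at day 0, 4.64, 3.82, 3.87 and 3.98 at day 1, and 3.60, 2.85, 3.65 and 3.38 at day 4. Day 1 overlapped day 0, and day 4 lay below both. The difference was -0.26 at day 1 (adjusted p = 0.41) and -0.97 at day 4 (SE 0.246, adjusted p = 0.0019). Against EGFP at day 4 it was -1.04 (adjusted p = 0.00095), the largest fall of complex I in that comparison.

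Ndufa12, a subunit of the arm that projects into the matrix, was the accessory gene that rose at day 1, and it is named because its rise stood alone in its class, after its values were seen. TdTomato arrays read 5.91, 5.38, 5.65 and 5.35 at day 0, 7.37, 6.25, 6.71 and 6.84 at day 1, and 6.08, 5.75, 6.24 and 5.74 at day 4. Day 1 lay above day 0 on every array and day 4 overlapped it. The day 1 difference was 1.22 (SE 0.186, adjusted p = 6.1e-06), or 2.33-fold.

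Ndufab1, the acyl carrier protein of mitochondria that is also a complex I subunit, was 1 of the 2 genes called in EGFP podocytes at day 7. The EGFP values were 0.01, -0.33, 0.01 and -0.13 at day 0 and 0.16, 0.85, 0.25 and 0.55 at day 7, so the groups did not overlap. The difference was 0.56 (SE 0.14, adjusted p = 0.012), and the call ended without the day 0 array of MC731 or the day 7 array of MC791.

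**Figure D4:**
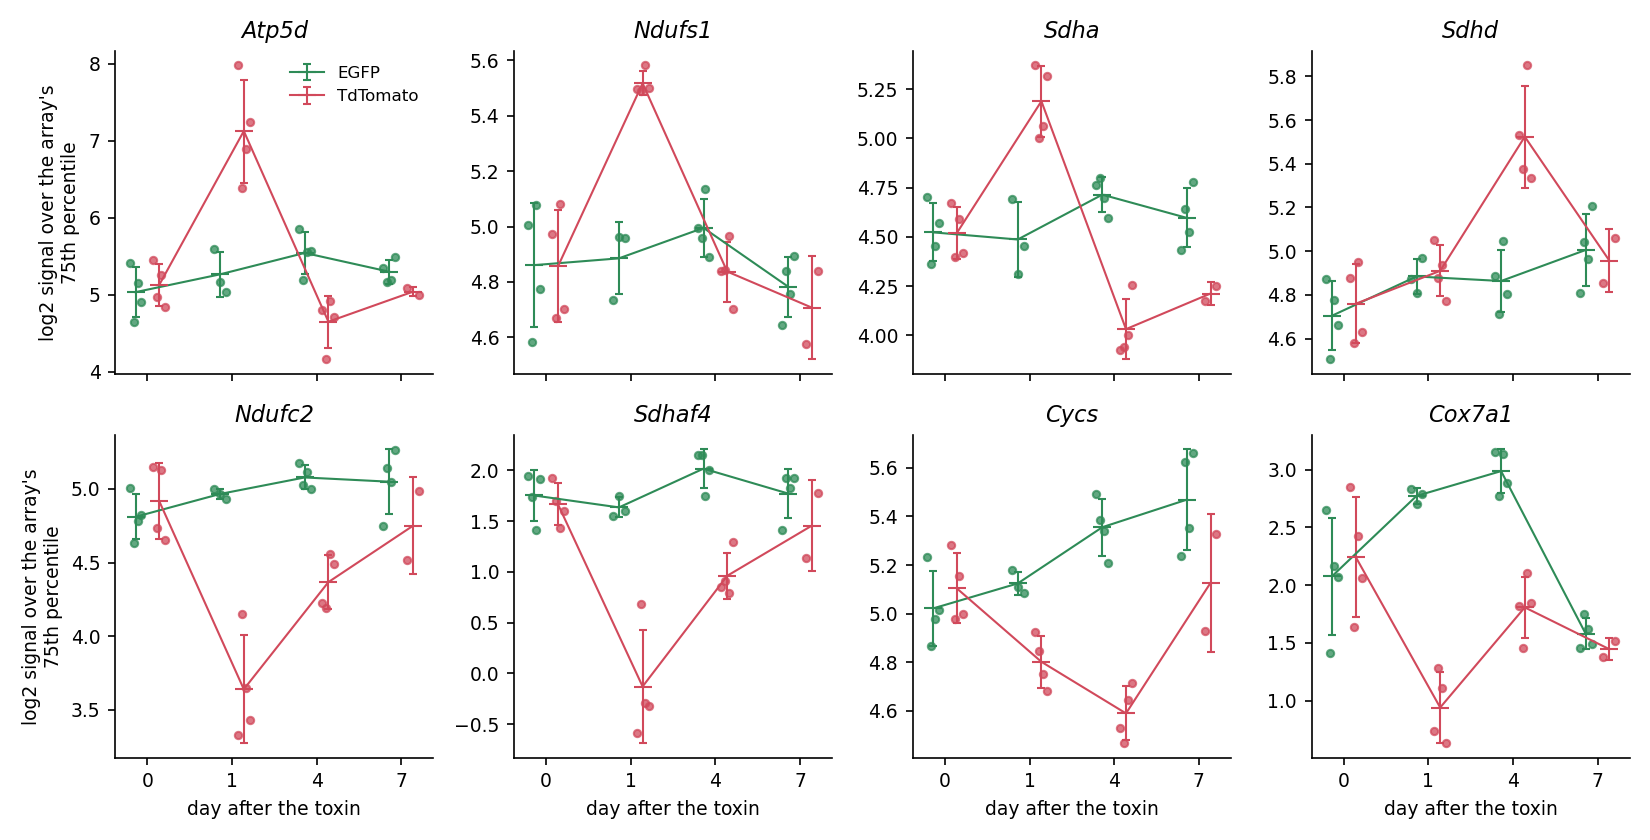
Log2 signal over the 75th percentile of the array for 8 genes by day, in EGFP (green) and TdTomato (red) podocytes, with a point for each array, group means joined by lines and bars of 1 SD. Atp5d, Ndufs1 and Sdha peak at day 1 and Sdhd at day 4 in TdTomato, while Ndufc2, Sdhaf4 and Cox7a1 are lowest at day 1 and Cycs at day 4.

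Complex II, succinate dehydrogenase, has 4 subunits, all read from nuclear genes, and they did not move together. Sdha is the flavoprotein that oxidises succinate. On the TdTomato arrays it read 4.67, 4.40, 4.59 and 4.42 at day 0, 5.37, 5.0, 5.07 and 5.32 at day 1, 3.93, 3.94, 4.00 and 4.26 at day 4, and 4.17 and 4.25 at day 7. Day 1 lay above day 0 and day 4 below it, with no overlap. The difference was 0.67 at day 1 (SE 0.122, adjusted p = 5.8e-05) and -0.49 at day 4 (SE 0.122, adjusted p = 0.0017). Its interaction with EGFP was 0.71 at day 1 (adjusted p = 0.003) and -0.68 at day 4 (adjusted p = 0.0032).

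Sdhd, one of the pair of membrane anchors, rose at day 4. The TdTomato values were 4.88, 4.58, 4.95 and 4.63 at day 0, 5.05, 4.88, 4.94 and 4.77 at day 1, and 5.53, 5.38, 5.85 and 5.34 at day 4. Day 4 stood above both earlier days. The difference from day 0 was 0.15 at day 1 (adjusted p = 0.36) and 0.76 at day 4 (SE 0.13, adjusted p = 3.3e-05), and against EGFP at day 4 it was 0.66 (adjusted p = 0.00015). Sdhb, the iron-sulphur subunit, differed by 0.04 at day 1 and -0.05 at day 4 (adjusted p = 0.9 and 0.85). Sdhc, the other anchor, was not called against day 0 but was below EGFP by -0.42 at day 1 and -0.38 at day 4 (adjusted p = 0.024 and 0.025), calls that ended without 3 of 7 and 4 of 8 arrays in turn.

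The 4 assembly factors of complex II all lay below their day 0 means in TdTomato on both days, with 3 called lower at day 1 and 4 at day 4, and class medians of -0.83 and -0.80. Of all genes, 27.9% and 35.9% were called lower on these days. Sdhaf4, which helps to build flavinated Sdha into the complex, had the largest fall of any of the 90 genes at day 1. TdTomato arrays read 1.93, 1.70, 1.44 and 1.6 at day 0, -0.59, 0.68, -0.29 and -0.33 at day 1, and 0.85, 0.91, 0.79 and 1.30 at day 4. The groups did not overlap, and day 1 was lowest. The difference was -1.80 at day 1 (SE 0.215, adjusted p = 2e-07), or 3.47-fold, and -0.70 at day 4 (SE 0.215, adjusted p = 0.0075).

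Sdhaf2, which is needed for the attachment of the flavin to Sdha, fell at day 4. Its TdTomato values were 2.05, 1.91, 1.69 and 1.98 at day 0, 1.75, 1.85, 1.38 and 1.91 at day 1, 0.74, 0.70, 0.56 and 1.05 at day 4, and 1.17 and 1.5 at day 7. Day 1 overlapped day 0, while days 4 and 7 lay below it. The difference was -0.18 at day 1 (adjusted p = 0.32), -1.14 at day 4 (SE 0.146, adjusted p = 7.5e-07) and -0.57 at day 7 (SE 0.179, adjusted p = 0.027), the last call ending without any of 3 of 6 arrays. Sdhaf3 fell by 0.90 at day 1 and by 0.89 at day 4 (adjusted p = 1.4e-05 and 2.3e-05), and Sdhaf1 fell by 0.75 and by 0.53 (adjusted p = 0.00042 and 0.0086). Both of these help to insert or protect the iron-sulphur clusters of Sdhb.

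Complex III hands electrons from quinol to cytochrome c. Of its 9 genes, 1 rose and 1 fell at day 1, beside 23.8% and 27.9% of all genes. At day 4, 1 rose and 3 fell, beside 21.4% and 35.9%. Uqcrc2, a core protein of the matrix side, was the gene that rose on both days. It read 5.34, 4.89, 5.36 and 5.06 in TdTomato at day 0, 5.88, 5.57, 5.80 and 5.80 at day 1, 5.79, 5.57, 5.95 and 5.64 at day 4, and 4.98 and 5.34 at day 7. Days 1 and 4 lay above day 0 and day 7 within it. The differences were 0.60 (SE 0.138, adjusted p = 0.00067) and 0.58 (SE 0.138, adjusted p = 0.001).

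Uqcrc1, its partner core protein, differed by -0.21 at day 1 (adjusted p = 0.33) and fell by 0.61 at day 4 (adjusted p = 0.0035) and by 0.59 at day 7 (adjusted p = 0.046). The day 7 call ended without any 1 of the 6 arrays. Uqcrfs1, the Rieske iron-sulphur protein, differed by -0.02 and -0.15 at days 1 and 4 (adjusted p = 0.94 and 0.52). Uqcr11, a small accessory subunit, fell by 0.70 at day 1 and by 0.80 at day 4 (adjusted p = 0.027 and 0.011), and both calls ended without the day 0 array of MC122. Cyc1, the cytochrome c1 of the complex, read 5.12, 4.76, 5.30 and 4.73 at day 0, 5.18, 5.19, 5.34 and 5.02 at day 1, and 4.25, 4.04, 4.79 and 4.57 at day 4. Day 1 and day 4 both overlapped day 0, day 4 at its upper end. It differed by 0.21 at day 1 (adjusted p = 0.38) and by -0.56 at day 4 (SE 0.184, adjusted p = 0.012).

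Cytochrome c, the mobile carrier that is also released in apoptosis, fell in TdTomato and rose in EGFP podocytes. In TdTomato podocytes Cycs read 5.28, 4.98, 5.16 and 5.0 at day 0, 4.92, 4.85, 4.75 and 4.68 at day 1, 4.53, 4.47, 4.64 and 4.71 at day 4, and 4.93 and 5.33 at day 7. Neither day 1 nor day 4 overlapped day 0. The differences were -0.30 (SE 0.123, adjusted p = 0.042) and -0.51 (SE 0.123, adjusted p = 0.0011), and the day 1 call ended without any of 4 of 8 arrays. In EGFP podocytes it read 5.23, 4.87, 4.98 and 5.01 at day 0, 5.18, 5.11 and 5.08 at day 1, 5.49, 5.38, 5.34 and 5.21 at day 4, and 5.24, 5.62, 5.35 and 5.66 at day 7. Day 7 lay just above day 0, with a difference of 0.45 (SE 0.123, adjusted p = 0.024) that was no longer called without any of 5 of 8 arrays. At day 4 the colours differed by -0.77 (adjusted p = 1.4e-05), and the interaction was -0.85 (SE 0.173, adjusted p = 0.00052).

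Complex IV, cytochrome c oxidase, reduces oxygen. Its 12 common nuclear subunits all lay below their day 0 means in TdTomato at day 1 and at day 4, with class medians of -0.30 and -0.34, and 4 were called lower on each day and 0 higher, a share of 33.3% that is near the 27.9% and 35.9% of all genes. Cox6c read 6.57, 5.65, 5.89 and 5.80 at day 0, 5.22, 5.14, 4.69 and 4.86 at day 1, and 5.25, 4.65, 5.17 and 5.39 at day 4. Both later groups lay below day 0. The differences were -1.0 (SE 0.225, adjusted p = 0.00057) and -0.86 (SE 0.225, adjusted p = 0.0023). Ndufa4, named for complex I but now assigned to complex IV, read 4.93, 4.41, 4.85 and 4.48 at day 0, 3.28, 3.87, 3.62 and 3.24 at day 1, and 4.09, 3.77, 4.73 and 4.22 at day 4. Day 1 lay below day 0, and day 4 overlapped it through MC822. The differences were -1.16 (SE 0.192, adjusted p = 1.6e-05) and -0.46 (SE 0.192, adjusted p = 0.042), and the day 4 call ended without any of 5 of 8 arrays.

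Several complex IV subunits exist as a common form and a tissue form. Cox4i1, the common form, fell by 0.64 at day 1 (adjusted p = 0.0034) and differed by -0.36 at day 4 (adjusted p = 0.079). Cox4i2, a form known for induction by low oxygen, differed by -0.07 at day 1 and 0.43 at day 4 (adjusted p = 0.86 and 0.17). Cox6b1, the common form, differed by -0.44 at day 1 (adjusted p = 0.091) and fell by 0.68 at day 4 (adjusted p = 0.0085). Cox6b2, known from testis, differed by -0.27 at day 1 (adjusted p = 0.16) and fell by 0.83 at day 4 (adjusted p = 8.2e-05). Cox7a2l, known for joining complexes III and IV into supercomplexes, fell by 0.42 at day 1 (adjusted p = 0.016) and differed by -0.26 at day 4 (adjusted p = 0.12). Its day 1 call ended without any of 3 of 8 arrays. Cox7b differed by -0.10 and -0.33 (adjusted p = 0.75 and 0.21). Cox6a1, Cox7a2 and Cox8a, the common forms of their subunits, were not called on either day in TdTomato, with differences between -0.35 and -0.15.

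Cox7a1, the form of heart and skeletal muscle, had the largest shortfall against EGFP at day 1. In TdTomato it read 2.85, 1.64, 2.42 and 2.07 at day 0, 0.73, 1.28, 1.11 and 0.63 at day 1, 1.82, 1.46, 2.11 and 1.85 at day 4, and 1.38 and 1.51 at day 7. In EGFP it read 2.65, 1.42, 2.17 and 2.07 at day 0, 2.83, 2.70 and 2.79 at day 1, 3.16, 2.77, 3.14 and 2.89 at day 4, and 1.46, 1.75, 1.62 and 1.49 at day 7. The colours did not overlap at days 1 and 4 and overlapped at days 0 and 7. TdTomato was lower than EGFP by -1.83 at day 1 (SE 0.25, adjusted p = 1.5e-06), or 3.56-fold, and by -1.18 at day 4 (SE 0.231, adjusted p = 0.00014). From day 0 TdTomato fell by 1.31 at day 1 (adjusted p = 3.9e-05) and by 0.80 at day 7 (adjusted p = 0.049), and 5 of 6 left-out arrays ended the day 7 call.

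Cox6a2 and Cox8c were the tissue forms called higher at day 4, and both were near background. Cox6a2, a muscle form, was well above background on 15 of 29 arrays and read -3.96, -4.50, -5.17 and -3.94 in TdTomato at day 0 and -2.53, -2.97, -3.16 and -2.38 at day 4. The groups did not overlap, and all 4 day 4 arrays but 2 of the 4 day 0 arrays were above background. The difference was 1.64 (SE 0.401, adjusted p = 0.0014). Cox8c, a testis form, was above background on 4 arrays in all, 3 of them TdTomato day 4, and on 0 of the day 0 arrays. Its fold over day 0 was therefore given as a bound, at least 1.58-fold (measured means -4.12 and -5.74, adjusted p = 0.0046 in limma), where the floor is the lowest signal well above background on each array. Cox8c met the filter of 3 arrays only through the TdTomato day 4 group. Its day 4 calls are therefore no separate support for a rise. They are counted among the genes higher at day 4 against day 0, against EGFP and in the interaction. Cox7b2 and Ndufa4l2 were above background on 26 and 16 arrays and were not called at day 1 or day 4.

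Complex V makes ATP in its F1 head, driven by the turning c ring, with a peripheral stalk as the holder. Of the 5 F1 genes, 1 rose at day 1. At day 4, 0 rose and 1 fell. Class counts of this complex, here and below, stand beside 23.8% higher and 27.9% lower of all genes at day 1. At day 4 those shares were 21.4% and 35.9%. The gene that rose at day 1 was Atp5d, the delta subunit of the central stalk, with the largest rise among the 90 genes. Its TdTomato values were 5.45, 4.97, 5.26 and 4.83 at day 0, 7.98, 6.39, 6.89 and 7.25 at day 1, 4.80, 4.16, 4.92 and 4.71 at day 4, and 5.08 and 5.0 at day 7. Day 1 stood above every other array, and day 4 overlapped day 0 at its lower end. The day 1 difference was 2.0 (SE 0.251, adjusted p = 4e-07), or 3.99-fold, and that of day 4 was -0.48 (adjusted p = 0.11). Against EGFP the difference was 1.86 at day 1 (adjusted p = 3.7e-06) and -0.89 at day 4 (adjusted p = 0.0038). The alpha subunit Atp5a1 differed by 0.06 and 0.04 at days 1 and 4 (adjusted p = 0.89 and 0.92). The catalytic beta subunit Atp5b differed by -0.11 at day 1 and -0.06 at day 4 (adjusted p = 0.72 and 0.84).

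In the peripheral stalk 2 of 4 genes fell on each day and 0 rose, where 27.9% and 35.9% of all genes were lower. Atp5h, subunit d, read 7.08, 6.60, 6.88 and 6.54 in TdTomato at day 0, 5.81, 6.00, 5.69 and 5.6 at day 1, 5.91, 5.57, 6.07 and 5.93 at day 4, and 6.31 and 6.4 at day 7. All later arrays lay below all day 0 arrays. The differences were -1.0 at day 1 (SE 0.144, adjusted p = 2.6e-06) and -0.91 at day 4 (SE 0.144, adjusted p = 1.3e-05). Atp5j, the coupling factor 6 of the stalk, fell by 0.74 at day 1 and by 0.73 at day 4 (adjusted p = 0.0011 and 0.0012).

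Among the 3 c ring genes, Atp5g3 fell by 0.81 at day 1 (adjusted p = 0.0098), a call that ended without the day 0 array of MC122, and 0 were called at day 4. Of the 5 other membrane subunits, Atp5md, which helps hold the synthase in dimers, rose by 0.62 at day 1 and by 0.57 at day 4 (adjusted p = 0.026 and 0.035). Each of its calls ended without any of 4 of 8 arrays. Atp5l fell by 0.70 at day 4 (adjusted p = 0.0043) and is named after its values were seen, as the single other call of that class.

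A gene can have several probes, and 23 of the 91 had 54 probes in all. In 25 calls of such genes between TdTomato day 1 or day 4 and day 0 or EGFP, 1 other probe pointed the opposite way, a dim probe of Cox7c with 0.13 beside -0.46 for the probe used at day 4.

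Genes that build and supply the chain were described from lists, whose counts stand beside 23.8% higher and 27.9% lower of all genes at day 1 and 21.4% and 35.9% at day 4, with all-gene medians of -0.13 and -0.28. Of 47 further assembly factors, 12 were higher and 16 lower at day 1 in TdTomato, with a median of -0.20, and 6 were higher and 27 lower at day 4, with a median of -0.56. These are 25.5% and 34% at day 1, near the shares of all genes, and 12.8% and 57.4% at day 4. Ttc19, which clears a precursor fragment from complex III, rose by 1.81 at day 1 (adjusted p = 2.4e-07). Atpaf1, a chaperone of the F1 head, was lower at day 1 by at least 1.38-fold, since no day 1 array had it above background (adjusted p = 0.0081). Tmem70, needed for the c ring, rose by 1.42 at day 4 (adjusted p = 0.00025), and Ndufaf3 fell by 1.11 (adjusted p = 3.9e-06).

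Mitochondrial ribosomal proteins, which translate the subunits of mitochondrial DNA, had 28 of 77 higher and 13 lower at day 1, with a median of 0.09, and 12 higher and 38 lower at day 4, with a median of -0.37. The shares were 36.4% and 16.9% at day 1 and 15.6% and 49.4% at day 4, beside the 23.8%, 27.9%, 21.4% and 35.9% of all genes. Mrpl33 rose by 1.87 (adjusted p = 9.7e-07) and Mrpl34 fell by 1.59 (adjusted p = 2e-06) at day 1. Of 26 import genes, 10 were higher and 2 lower at day 1 (38.5% and 7.69%), and 4 higher and 11 lower at day 4 (15.4% and 42.3%). The import motor chaperone Hspa9 rose by 1.80 at day 1 and by 1.24 at day 4 (adjusted p = 3.3e-09 and 1.1e-06). Of 17 genes of pyruvate dehydrogenase and the citric acid cycle, 2 were higher and 3 lower at day 1 (11.8% and 17.6%), and 0 higher and 9 lower at day 4 (0% and 52.9%). Idh3a, a subunit of isocitrate dehydrogenase, fell by 0.81 in TdTomato at day 1 (adjusted p = 0.00046) and rose by 0.80 in EGFP at day 7 (adjusted p = 0.0045).

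Of 24 regulators of respiratory chain genes, 7 were higher and 8 lower at day 1 (29.2% and 33.3%), and 5 higher and 10 lower at day 4 (20.8% and 41.7%), shares near the 23.8%, 27.9%, 21.4% and 35.9% of all genes. The coactivator Ppargc1a rose by 4.15 at day 1 (SE 0.377, adjusted p = 3.3e-09) and stood 1.06 above day 0 at day 4 (adjusted p = 0.02). Esrra, a receptor that it coactivates, fell by 1.32 and by 1.09 (adjusted p = 3.8e-08 and 8.2e-07). Gabpb1, of the factor that binds the ETS string, rose by 2.49 and by 1.98 (adjusted p = 7.7e-11 and 2.9e-09), while its DNA-binding partner Gabpa differed by 0.16 and -0.22 (adjusted p = 0.35 and 0.16). Nrf1 differed by 0.35 and -0.26 (adjusted p = 0.12 and 0.24). Tfam, which packages and transcribes mitochondrial DNA, differed by 0.18 at day 1 (adjusted p = 0.23) and fell by 0.50 at day 4 (adjusted p = 0.001).

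Of 25 glycolysis genes, 4 were higher and 13 lower at day 1 (16% and 52%, beside 23.8% and 27.9% of all genes), with a median of -0.65 beside -0.13. At day 4, 3 were higher and 8 lower (12% and 32%, beside 21.4% and 35.9%), with a median of -0.29 beside -0.28. Eno2, an enolase, rose by 5.06 and by 5.11 (adjusted p = 2.1e-11 and 1.1e-11). The glucose transporter Slc2a3 rose by 2.44 and by 5.95 (adjusted p = 5.4e-07 and 2.3e-13), and Gpi1, an early glycolytic isomerase, fell by 1.80 and by 0.63 (adjusted p = 2e-08 and 0.0057). Of 24 mitochondrial proteases, chaperones and stress genes, 10 were higher and 5 lower at day 1 (41.7% and 20.8%), and 5 higher and 6 lower at day 4 (20.8% and 25%, beside 21.4% and 35.9% of all genes). Fgf21, a hormone induced by mitochondrial stress, was not above background on any day 0 array and was at least 8.40-fold higher at day 4 (adjusted p = 5.4e-10), and Gdf15, another such signal, rose by 3.11 (adjusted p = 6.3e-06). Myeloid and lymphocyte markers were also higher in these day 4 arrays, as given above, and their part in these rises was not tested.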

How the data were processed

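Each of 29 one-colour Agilent arrays gave a processed signal per spot, an intensity that the authors deposited as written by Agilent Feature Extraction 11.5.1.1, per the submitters' processing notes and the file headers; any background step behind it is that of the scanner software. The deposited table of log2 values by the authors was used as an alternative only; the centring behind it stays unknown, and 27 of its 29 columns matched their own array best, the exceptions being the arrays of mouse MC221. Of 55681 probes, 26582 were named through RefSeq accessions (GRCm38.p6). Spots marked as non-uniform or outliers were set aside, which left 48 missing values, 2 of them in the genes described (Ndufb7 in a TdTomato day 0 array, Cox7a2 in an EGFP day 7 array), and those fits used the remaining arrays. Probes well above background on at least 3 arrays were kept, and the brightest probe stood for its gene. The log2 signal minus the 75th percentile of the array was fitted as 8 group means with limma 3.58.1 in R 4.3.3, with Benjamini-Hochberg adjustment over 15639 genes and a threshold of 0.05; limma gave every adjusted p in the text. The code was tested on simulated data. No read depth exists for arrays, and the number of arrays limits precision. Replicates were separate mice.

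The members and the gene lists were chosen with earlier results of these data known. Genes were named as the called gene with the largest rise and the largest fall of each complex and comparison, as listed isoforms and core subunits, and as up to 3 called genes of a pathway list; 1 gene that the rule names is not reported here, though the counts over the 90 genes hold it. The other genes named with values (Ndufa12, Cox8c, Cox7b2, Cox7c, Sdhaf1, Sdhaf3, Atp5j, Atp5g3, Atp5l and, among the lists, Nrf1, Gabpa, Tfam, Ndufaf3 and others beyond the largest) complete their class or role and were chosen after their values were seen. Both colours came from the same mouse in 13 mice; within-mouse correlations of deviations from the group means were 0.04 to 0.64, and the mouse was used as a replicate block in an alternative fit. Other alternatives were quantile normalization, normexp with offset 50 on median signals (the mean signal was not used here), both probe filters, the mean of probes, the slide as a block, the authors' table, fits of only the groups compared, and each array left out. The subunits read from mitochondrial DNA were not analysed here.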

Additional observations from a re-analysis of the deposited data

Results flagged for a closer look

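Among 233 groups of 4 arrays, 17 held an array that stood apart from the other 3 by more than the 95% critical value of Dixon's test. Chance alone would flag about 1 in 20 of the 233 groups, so many of the 17 can be chance. The groups also share arrays and are not independent. Most of the 17 flagged values came from slide 4, where the same few arrays were flagged more than once. The EGFP day 0 array of MC122 stood high for Atp5b at 7.84, Cox6a1 at 8.85, Sdhb at 5.92 and Uqcr11 at 6.86, and the TdTomato array of that mouse for Cox7a2 at 5.95 and Sdhb at 5.97. The EGFP day 4 array of MC151 stood high for Atp5b at 7.93 and Cox6c at 6.58. The TdTomato day 1 array of MC125 stood high for Atp5b at 7.84, Cox8a at 8.47, Ndufv1 at 6.47 and Uqcr11 at 6.19, and its median over the 90 genes was 0.20 relative to day 0. On other slides, the TdTomato day 1 array of MC542 was high for Ndufs1 at 5.58 and low for Uqcrc1 at 3.02, and the EGFP day 7 array of MC943 was apart for Atp5md at 5.40 and Ndufv2 at 4.92.

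The change from day 0 differed between TdTomato and EGFP podocytes, by the interaction term of the limma fit at an adjusted p below 0.05, in 32 tests over 38 named genes. Many of these genes were named for large TdTomato changes, which the interaction uses again, so this count is raised by the choice. Over all genes the interaction was positive for 18.3% and negative for 20.1% at day 1, and for 16% and 28.3% at day 4. At day 1 it was positive for Atp5d at 1.77, Sdha at 0.71, Ndufs1 at 0.64 and Uqcrc2 at 0.53. It was negative for Cox7a1 at -2.00, Sdhaf4 at -1.68, Ndufc2 at -1.43, Ndufa4 at -1.30, Cox6c at -1.08, Atp5h at -0.97, Ndufs8 at -0.95 and Cox4i1 at -0.68. At day 4 it was positive for Cox6a2 at 1.59 and Sdhd at 0.61. Cox6a2 was above background on 1 of 4 EGFP day 4 arrays and on 2 of 4 arrays of each day 0 group. The size of its term is therefore uncertain, and its call ended in 2 of 16 left-out arrays. Subunits of electron transfer and assembly with a negative value at day 4 were Ndufs8 at -1.18, Ndufb2 at -1.17, Sdhaf2 at -1.08, Uqcr11 at -0.99, Sdhaf4 at -0.97, Cyc1 at -0.85, Cycs at -0.85, Ndufc2 at -0.82, Uqcrc1 at -0.78, Sdha at -0.68 and Ndufab1 at -0.64. Those of complexes IV and V were Cox7a1 at -1.35, Cox6b2 at -1.12, Cox6c at -1.02, Atp5h at -1.0, Atp5d at -0.99, Cox6b1 at -0.92 and Ndufa4 at -0.77. Atp5d and Sdha thus had terms of opposite sign on the 2 days. Of the day 1 terms, that for Cox4i1 ended in 10, that for Uqcrc2 in 11 and that for Ndufs8 in 1 of 15 left-out arrays. Of the day 4 terms, that for Uqcr11 ended in 6, that for Atp5d in 4 and that for Ndufa4 in 4 of 16.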

How the results depend on the processing

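No difference of a called named gene changed sign. The balance of calls in TdTomato at day 7, 0 higher and 3 lower, turned to more higher than lower in the authors' table, without both MC221 arrays and without the TdTomato day 7 array of MC221, and the median of the 90 genes there went from -0.14 to 0.02 under quantile normalization. Counts of called genes are given where they moved by more than 1.5 times. Under quantile normalization, TdTomato against day 0 gave 37 lower at day 1, 10 higher at day 4, and 1 higher and 1 lower at day 7; against EGFP it gave 41 lower at day 1, 9 higher at day 4 and 1 lower at day 7, and the interaction 28 negative at day 1 and 5 positive at day 4. With normexp, 7 were lower in TdTomato at day 7, 1 higher in EGFP at day 7 and 2 lower against EGFP at day 7. It moved the median of all genes in TdTomato at day 7 from -0.14 to -0.02. That of the 90 genes there went from -0.14 to -0.23. Against EGFP at day 4 the all-gene median went from -0.33 to -0.23. In the interaction it went from -0.08 to -0.19 at day 1 and from -0.19 to -0.09 at day 7. With the slide as a block, 36 were lower in TdTomato at day 1, 1 higher and 14 lower at day 7, 2 and 4 higher in EGFP at days 4 and 7, 12 and 7 higher against EGFP at days 1 and 4, 1 lower at day 7, and the interaction was negative for 27 and 61. With the mouse as a replicate block, the paired counts were 14 and 7 higher against EGFP at days 1 and 4, 2 higher in EGFP at day 4, 30 negative interactions at day 1, and 6 positive and 64 negative at day 4; it moved no other count by 1.5 times. The authors' table gave 2 higher and 1 lower in TdTomato at day 7, 1 higher in EGFP at day 4, and 1 higher and 1 lower against EGFP at day 7. Without a filter 1 was lower in TdTomato at day 7, with the strict filter 1 higher in EGFP at day 4, and with the mean of probes 1 higher in EGFP at day 7. Fits of only the groups compared gave 0 lower in TdTomato at day 7, 0 higher in EGFP at day 7 and 13 lower against EGFP at day 1. Without both MC221 arrays, 1 was higher and 0 lower in TdTomato at day 7 (with 1 array, assumed to vary like the other groups) and 1 higher in EGFP at day 4. Without slide 4, chosen after seeing the data, 0 were lower in TdTomato at day 7 and 3 interactions were positive at day 1. The cause of these moves was not tested.

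Leaving out each array in turn gave, in TdTomato, 6 to 9 higher and 14 to 28 lower at day 1, 5 to 7 and 26 to 38 at day 4, and 0 to 1 and 0 to 2 at day 7. In EGFP it gave 0 to 1 higher at day 4 and 0 to 3 at day 7. Against EGFP it gave 6 to 8 higher and 10 to 25 lower at day 1 and 2 to 5 and 38 to 51 at day 4, and for the interaction 5 to 7 and 8 to 22 at day 1 and 1 to 3 and 29 to 46 at day 4. The TdTomato day 7 count of 3 lower changed without any of the 6 arrays, to 2 without MC731 or MC791, to 1 without MC742 or MC753 and to 0 without MC122 or MC221. The EGFP day 7 count of 2 became 3 without the day 0 array of MC122, and it fell to 0 or 1 without the day 0 arrays of MC731, MC742 or MC753 or the day 7 arrays of MC791 or MC943; the EGFP day 4 count became 1 without MC122. Calls that held under every left-out array numbered 6 of 8 higher and 14 of 23 lower in TdTomato at day 1, 5 of 6 and 25 of 36 at day 4, and 0 of 3 lower at day 7. With 2 TdTomato arrays at day 7, a lack of calls there does not show a return to day 0, and dim genes such as Cox8c are measured only as bounds.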
